A study of Mus musculus with 90 samples.

Results

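Amygdala RNA of resident male mice that had met an intruder was compared between 30 and 60 min after the encounter. The comparison used 10 of the 90 libraries of the series, 5 at each time, chosen by their labels alone. Residents were C57BL/6J males that had held a territory with a female, which was taken out of the cage 3 hours before the trial. They were shown an unfamiliar BALB/cJ male behind wire mesh for 5 min and then kept in a dark, quiet place until they were killed, for which the series' text names cervical dislocation. Controls were C57BL/6J residents shown the same mesh cage with a paper cup in it, and 5 amygdala libraries of controls stood at each of the same times. The 5 libraries of intruder-exposed residents at 120 min, and intruder-exposed hypothalamus and frontal cortex at 30 and 60 min (5 libraries each), served for comparison. No mice were taken without any exposure, so a level before the trial was not measured. Ages were not given. Each label names its own animal, while the series' design text speaks of pooling RNA for sequencing; how the pooling was done is not given, and replicates are taken here as animals.

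The amygdala is a set of nuclei that assigns emotional and social value to sensory cues and drives defensive and territorial behaviour. When neurons fire, calcium and cyclic AMP activate kinases that phosphorylate factors already bound at promoters, such as CREB and the serum response factor. This switches on immediate-early genes without new protein synthesis. Many of these transcripts are short-lived, so their levels rise and decline again quickly after a stimulus, and they are followed by slower genes whose products act at synapses, in signalling and in chromatin.

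Between the 2 times 12 immediate-early and activity-induced genes fell, as given below. The promoter table of RefSeq (build GRCm38.p6) held 9 of these 12. The windows of 5 are shown because CREB is known to bind the palindrome TGACGTCA and its shorter form TGACG, read on either strand as CGTCA. Each sequence is the 200 bases before the start site, 5' to 3' on the gene's strand, with TGACG or CGTCA in capitals. The palindrome contains both short forms. The 5 genes shown were picked by hand and include each of the 9 whose window held the palindrome. The coordinates are Fos chr12:85473690-85473889 (+), Npas4 chr19:4989972-4990171 (-), Btg2 chr1:134079156-134079355 (-), Dusp1 chr17:26508473-26508672 (-), Scg2 chr1:79440027-79440226 (-).

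Fos: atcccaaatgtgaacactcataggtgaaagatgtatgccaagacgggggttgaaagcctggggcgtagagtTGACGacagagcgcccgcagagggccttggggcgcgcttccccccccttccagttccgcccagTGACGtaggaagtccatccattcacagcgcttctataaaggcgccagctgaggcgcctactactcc
Npas4: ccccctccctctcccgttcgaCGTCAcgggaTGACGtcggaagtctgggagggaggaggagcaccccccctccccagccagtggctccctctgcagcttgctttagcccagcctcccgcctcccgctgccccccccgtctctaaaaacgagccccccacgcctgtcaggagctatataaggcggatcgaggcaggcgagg
Btg2: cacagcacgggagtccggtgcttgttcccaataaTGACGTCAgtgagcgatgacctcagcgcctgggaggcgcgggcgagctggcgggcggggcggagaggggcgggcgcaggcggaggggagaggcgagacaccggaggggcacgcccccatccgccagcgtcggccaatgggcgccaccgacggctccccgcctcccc
Dusp1: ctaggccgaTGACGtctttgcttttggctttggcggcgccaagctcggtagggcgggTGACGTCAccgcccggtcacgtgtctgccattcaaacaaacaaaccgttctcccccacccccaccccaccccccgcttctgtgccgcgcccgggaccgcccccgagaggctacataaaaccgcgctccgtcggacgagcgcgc
Scg2: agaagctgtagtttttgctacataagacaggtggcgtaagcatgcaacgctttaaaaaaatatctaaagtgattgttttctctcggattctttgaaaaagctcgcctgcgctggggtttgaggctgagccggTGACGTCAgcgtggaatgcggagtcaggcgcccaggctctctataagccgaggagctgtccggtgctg

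The short form stood within 250 bases before the start site in 8 of the 9 genes, against 17.8% of all 32851 windows of that length in the table, and the full palindrome in 3 (Btg2, Dusp1 and Scg2), against 1.55% of all windows. In Fos the short form began at positions -129 and -66, in Npas4 at -179 and -169, in Btg2 the palindrome began at -166, in Dusp1 at -143 and in Scg2 at -68, counted back from the start site. Gadd45g held neither. Homer1, the activity-induced gene that rose, has 2 listed windows, and only the window with the most matches was counted. That window held 3 matches to the short form and no palindrome. These matches describe letters in a window and are not measurements of binding. The 9 genes come from lists of known activity-induced genes, and windows of list members that were not called were not searched. The shares therefore do not set the genes that fell apart from the rest of their lists.

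Depth was even among the 10 libraries, at 44.9 to 51.0 M reads in genes, and values below are CPM, the reads of a gene scaled to the size of its library after normalization by trimmed mean of M-values. Of 12 marker genes listed for amygdala, all were detected, and their summed level was 674 to 887 CPM at 30 min and 606 to 883 CPM at 60 min. The share of reads that fell in no annotated gene was 11.6% ± 0.45 (SD, n = 5) at 30 min and 13.0% ± 0.79 (SD, n = 5) at 60 min (exact permutation test, two-sided, p = 0.0238, adjusted p = 0.143 over 6 library measures). The label descriptions give each library a pair of index sequences. All 5 of the 30 min intruder libraries carried the same leading index and all 5 of the 60 min ones carried another, so within these 10 libraries time and index cannot be told apart. Of the controls, 2 at 30 min carried the index of the 60 min intruder libraries and 3 that of the 30 min ones, and at 60 min 1 carried the former and 4 a further index. A further split runs through the whole series: the deposited column names carry the tag ISO for every 30 min library and CERV for every 60 and 120 min library, in intruder-exposed mice and controls and in all 3 regions. What the tags stand for is not given in the sources used here. Time and this tag cannot be told apart in any comparison of 30 with 60 min, including those of controls, hypothalamus and frontal cortex. Library 4 at 60 min stood apart by cerebellar transcripts, given with its genes at the end of the comparison.

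Between 30 and 60 min, 1281 of 17277 tested genes differed in the intruder-exposed amygdala (7.41%; edgeR quasi-likelihood test, Benjamini-Hochberg adjusted p below 0.05). Of these, 814 were higher at 60 min (4.71%) and 467 were lower (2.7%), so that 63.5% were higher; with upper-quartile scaling 1403 were called and 45.8% were higher. Most changes were small: the median log2 fold change was 0.26 among the higher genes and -0.22 among the lower, and 16 higher and 4 lower genes passed a 2-fold change. Among the lower genes were neuronal activity genes, and the lower side also held subunits of mitochondria and ribosomes. Among the higher genes were long transcripts of chromatin regulators, cohesin, splicing and postsynaptic scaffold genes. The count was 535 without 30 min library 1, 653 without 30 min library 5, 651 without 60 min library 1 and 672 without 60 min library 2. It was 249 with offsets for GC content and transcript length, of which 42.6% were higher, 279 with the share of reads outside genes as a covariate, of which 74.6% were higher, and 1 (Proser1) with the index as a block, which rests on the controls alone to separate index from time. With the index block the median log2 fold change of the 814 genes was 0.25 and that of the 467 was -0.19, against 0.26 and -0.22 without it. Within the 30 min controls, 2 libraries against 3, the same genes differed between the 2 indices by medians of 0.02 and -0.02. Within the 60 min controls 1 library carried the index of the 60 min intruder libraries and 4 a further index, not that of the 30 min ones. There the medians were 0.07 and -0.07, and the 1 library was control 1, with 14.5% of its reads outside genes.

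Of 23 tested immediate-early transcription factors, 5 fell (Fos, Junb, Nr4a1, Npas4 and Ier2) and none rose. Over all genes tested 2.7% were called lower and 4.71% higher, shares against which each list count below is to be read. The median log2 fold change of the list was -0.05, against 0.00 over all genes, with 13 members lower and 10 higher in value, from -0.93 to 0.31. Across all genes, the 5 libraries of one time lay wholly above those of the other for 821 genes higher at 60 min (4.75%) and for 695 lower (4.02%). Of the 23 factors, 4 lay wholly lower at 60 min and 0 wholly higher.

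Fos encodes the partner of Jun proteins in the AP-1 factor and is the standard marker of recently active neurons. It stood at 49.97, 45.9, 53.6, 50.5 and 43.9 CPM in the 30 min libraries and at 31.7, 21.7, 32.1, 21.3 and 20.8 CPM in the 60 min libraries. The groups did not overlap, and the lowest 30 min library was above the highest 60 min library. The log2 fold change was -0.93 (SE 0.15, adjusted p = 0.000824), and the gene was called in all 10 fits that left out a library. Its level at 120 min was 17.5 ± 1.92 CPM (SD, n = 5).

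Npas4, a factor induced in neurons by calcium entry, stood at 21.8, 22.9, 26.5, 23.6 and 19.5 CPM at 30 min and at 17.5, 11.7, 11.5, 9.60 and 12.5 CPM at 60 min. The groups did not overlap, with library 1 the highest at 60 min. The log2 fold change was -0.86 (SE 0.16, adjusted p = 0.00255). At 120 min it was 12.2 ± 2.88 CPM (SD, n = 5), within the range of the 60 min libraries.

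Ier2, a small nuclear protein of the rapid response, was 3.72, 4.43, 4.77, 4.94 and 4.98 CPM at 30 min and 3.47, 2.83, 3.30, 2.85 and 2.97 CPM at 60 min, with a log2 fold change of -0.57 (SE 0.09, adjusted p = 0.000901). Junb, another AP-1 subunit, was 68.7, 64.6, 71.7, 73.5 and 62.7 CPM at 30 min and 58.2, 47.9, 60.8, 34.0 and 31.3 CPM at 60 min. The log2 fold change of Junb was -0.56 (SE 0.17, adjusted p = 0.0423), and it was called in 2 of 10 fits that left out a library. Nr4a1, an orphan nuclear receptor, was 89.5, 81.4, 90.9, 103 and 87.6 CPM at 30 min and 85.5, 53.1, 64.8, 43.9 and 48.6 CPM at 60 min, with a log2 fold change of -0.61 (SE 0.15, adjusted p = 0.0162). Junb and Ier2 did not overlap between the times, while library 1 at 60 min lay inside the 30 min range of Nr4a1.

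Other factors of the list did not pass. Fosb, a relative of Fos, was 23.1 ± 3.10 CPM at 30 min and 19.4 ± 4.05 CPM at 60 min (SD, n = 5 each; log2 fold change -0.26, adjusted p = 0.292). Egr1, the zinc finger factor used as an activity marker, was 231 ± 23.0 and 195 ± 32.2 CPM (SD, n = 5 each; log2 fold change -0.24, adjusted p = 0.218). Egr3, another factor of that family, was 27.7 ± 4.50 and 32.5 ± 5.98 CPM (SD, n = 5 each; adjusted p = 0.322). Nr4a3, a relative of Nr4a1, was 41.2 ± 6.26 and 49.3 ± 12.1 CPM (SD, n = 5 each; adjusted p = 0.496).

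**Figure D1:**
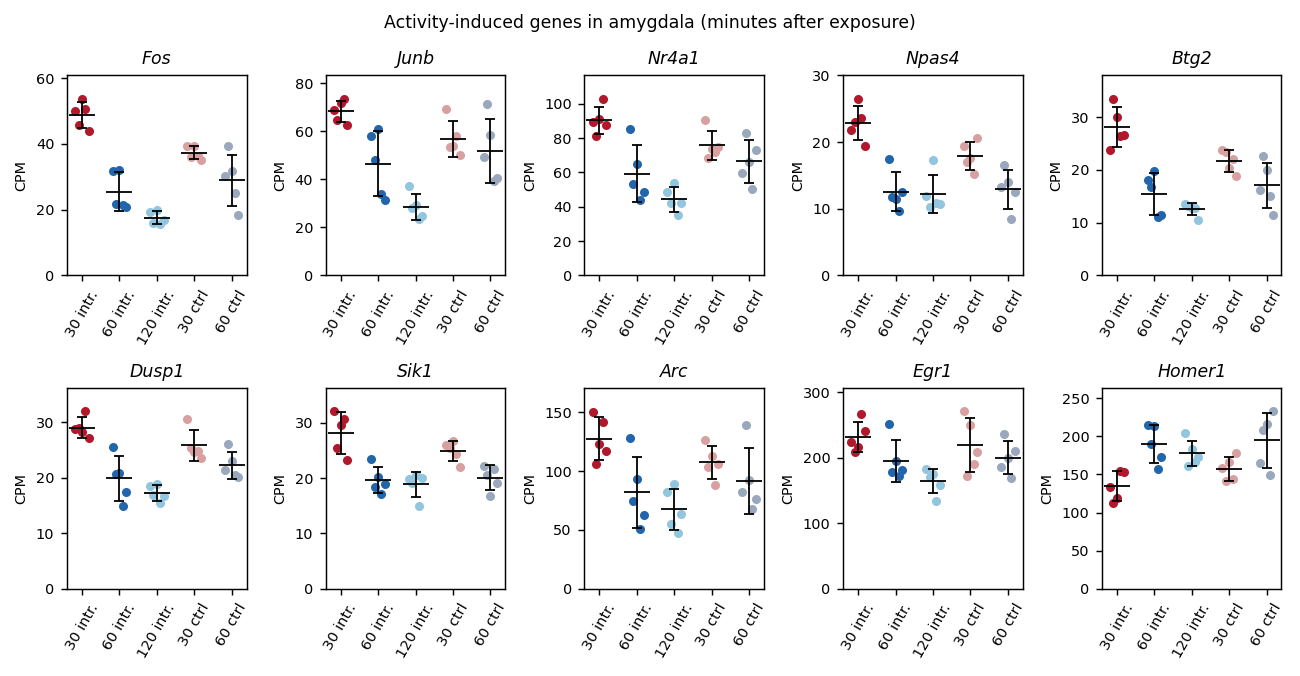
CPM of 10 activity-induced genes in each amygdala library (points) with group mean and SD (black; n = 5 each) for intruder-exposed mice at 30, 60 and 120 min and controls at 30 and 60 min; axes start at 0. Fos, Npas4 and Btg2 of the intruder-exposed mice lie at 43.9 to 53.6, 19.5 to 26.5 and 23.8 to 33.5 CPM at 30 min, above every 60 min library of the same condition, while Homer1 lies higher at 60 min.

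Of 34 activity-induced effector genes, 7 fell (Btg2, Dusp1, Ccn1, Sik1, Gadd45g, Vgf and Scg2) and 1 rose (Homer1), with a list median of -0.03. Btg2, which recruits deadenylases to messenger RNA and restrains growth, was 23.8, 33.5, 30.1, 26.4 and 26.5 CPM at 30 min and 18.1, 16.8, 19.8, 11.04 and 11.5 CPM at 60 min. The groups did not overlap, and the log2 fold change was -0.86 (SE 0.15, adjusted p = 0.00181). Dusp1, a phosphatase that switches off MAP kinases, was 28.8, 28.9, 28.2, 32.0 and 27.1 CPM and then 25.5, 20.7, 20.9, 14.8 and 17.5 CPM, again without overlap (log2 fold change -0.54, SE 0.12, adjusted p = 0.0058).

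Sik1, a kinase that restrains CREB co-activators, went from 28.2 ± 3.76 to 19.6 ± 2.40 CPM (SD, n = 5 each; log2 fold change -0.52, adjusted p = 0.00253). Ccn1, a matrix protein induced by serum and stretch, went from 7.75 ± 1.62 to 5.26 ± 0.86 CPM (SD, n = 5 each; log2 fold change -0.56, adjusted p = 0.0215). Gadd45g, a stress-response protein tied to DNA demethylation, went from 15.3 ± 0.78 to 12.0 ± 1.12 CPM (SD, n = 5 each; log2 fold change -0.36, adjusted p = 0.00882). Sik1 and Ccn1 overlapped between the times, and Gadd45g did not.

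The granins Scg2 and Vgf, precursors of peptides stored in dense-core vesicles, also fell. Scg2 was 636, 614, 605, 580 and 543 CPM at 30 min and 439, 370, 433, 484 and 511 CPM at 60 min (log2 fold change -0.41, SE 0.10, adjusted p = 0.0113). Vgf was 356 ± 24.8 and 296 ± 22.0 CPM (SD, n = 5 each; log2 fold change -0.27, adjusted p = 0.0264; called in 6 of 10 such fits). Neither overlapped between the times. At 120 min Scg2 was 542 ± 48.9 CPM (SD, n = 5), with a change from 60 min that was not called (adjusted p = 0.288).

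Homer1, a scaffold that couples metabotropic glutamate receptors to calcium stores, was the effector that rose. It was 134, 113, 119, 155 and 154 CPM at 30 min and 215, 189, 214, 158 and 172 CPM at 60 min (log2 fold change 0.49, SE 0.12, adjusted p = 0.016), and it was called in 8 of 10 fits that left out a library, not without 30 min library 3 or 60 min library 1. All 60 min libraries lay above all 30 min libraries. Counts are per gene, so the short activity-induced isoform known for this gene was not measured apart from the long one. Arc, which controls receptor uptake at synapses, was 150, 106, 123, 142 and 117 CPM at 30 min and 128, 74.5, 93.0, 50.9 and 62.5 CPM at 60 min, and did not pass (log2 fold change -0.64, SE 0.22, adjusted p = 0.0755). Bdnf, the neurotrophin, was 24.1 ± 2.53 and 29.9 ± 8.57 CPM (SD, n = 5 each; adjusted p = 0.53).

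Other genes among the clearest declines had no part in that list. Tob1, a partner of Btg2 in the same family of deadenylation adaptors, was 45.2, 43.1, 42.9, 42.9 and 42.5 CPM at 30 min and 37.3, 36.7, 37.6, 32.9 and 35.2 CPM at 60 min (log2 fold change -0.27, SE 0.04, adjusted p = 0.000791). Sall2, a zinc finger transcription factor, was 104 ± 5.97 and 87.6 ± 2.83 CPM (SD, n = 5 each; log2 fold change -0.25, adjusted p = 0.00138). Gstp1, which conjugates glutathione to reactive compounds, was 51.7 ± 3.07 and 41.0 ± 1.37 CPM (SD, n = 5 each; log2 fold change -0.34, adjusted p = 0.00153). None of these 3 overlapped between the times.

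Of 50 neuropeptides and hormone receptors, 1 fell (Tac2) and 1 was called higher (Nr3c1, given with the glucocorticoid genes), with a list median of -0.15. Over all genes 2.7% were called lower and 4.71% higher, and neither count of this list passed those shares. Tac2, the neurokinin B precursor, was 20.4, 12.0, 15.2, 16.5 and 14.1 CPM at 30 min and 8.33, 6.83, 8.78, 11.2 and 5.11 CPM at 60 min. The groups did not overlap (log2 fold change -0.96, SE 0.26, adjusted p = 0.0254); it was called in 6 of 10 fits that left out a library and not with offsets for GC content and length. Scgn, a calcium sensor of some interneurons, was 1.96, 1.38, 2.15, 1.18 and 1.51 CPM and then 0.894, 0.324, 0.778, 1.17 and 1.15 CPM (log2 fold change -0.92, SE 0.24, adjusted p = 0.0182). Of 10 inhibitory neuron markers 8 had a lower value and none was called, with a median of -0.22 and sums of 1469 to 1871 CPM at 30 min and 1041 to 1727 CPM at 60 min; their part in these peptide values was not tested. Dlk1, a Notch-pathway ligand listed with Tac2 among the amygdala markers, fell from 60.4 ± 6.95 to 43.4 ± 5.70 CPM (SD, n = 5 each; log2 fold change -0.48, adjusted p = 0.049). Dlk1 was called in 2 of 10 fits that left out a library, and not with size factors by relative log expression (adjusted p = 0.0501) or with the offsets. These were 2 of the 12 amygdala markers, and in such tissue samples fewer cells of a type and less RNA per cell cannot be told apart.

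Avp and Oxt, the vasopressin and oxytocin precursors of hypothalamic neurons, had the largest drops in value of the peptide list without passing. Avp was 26.1, 10.1, 13.8, 35.5 and 17.1 CPM at 30 min and 3.36, 2.61, 6.86, 3.07 and 7.41 CPM at 60 min (log2 fold change -2.14, SE 0.81, adjusted p = 0.104). Oxt was 2.28 ± 1.47 and 0.687 ± 0.199 CPM (SD, n = 5 each; log2 fold change -1.72, adjusted p = 0.172). Both groups separated fully. The same genes in controls also varied widely, with Avp at 22.8 ± 17.8 CPM at 30 min and 7.57 ± 4.57 CPM at 60 min (SD, n = 5 each). The 9 tested hypothalamus markers, which hold these peptides, summed to 44.9 to 76.6 CPM at 30 min and 25.5 to 94.4 CPM at 60 min, with 8 of 9 lower in value, a median of -0.63 and 0 of 9 called, and their part in the peptide values was not tested.

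Ddc, the enzyme that completes the synthesis of dopamine and serotonin, fell from 13.0 ± 1.65 to 9.57 ± 1.32 CPM (SD, n = 5 each; log2 fold change -0.44, adjusted p = 0.0213). Htr7, a serotonin receptor, fell from 20.4 ± 0.625 to 17.8 ± 1.09 CPM (SD, n = 5 each; log2 fold change -0.20, adjusted p = 0.0377). These were the 2 called members of 24 monoamine genes tested, with a list median of -0.04; neither was called without 30 min library 1, and with offsets for GC content and length Ddc alone was.

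Of 30 glucocorticoid-responsive genes, 28 had a higher value at 60 min, 1 rose (Txnip) and 1 fell (Dusp1), and the list median was 0.25, against 0.12 in controls. Over all genes 4.71% were called higher and 2.7% lower, so 1 call each way is near those shares. The adrenal steroid corticosterone acts through the receptors that drive such genes. Txnip, which binds thioredoxin and limits glucose uptake, was 22.1, 18.7, 19.8, 20.6 and 22.3 CPM at 30 min and 29.5, 25.9, 28.5, 31.2 and 36.7 CPM at 60 min (log2 fold change 0.55, SE 0.14, adjusted p = 0.0189). The groups did not overlap. Sgk1, a kinase that the hormone induces, was 65.6, 47.5, 47.5, 82.7 and 78.7 CPM and then 137, 62.4, 71.7, 96.9 and 144 CPM (log2 fold change 0.67, SE 0.26, adjusted p = 0.121). Fkbp5, a brake on the receptor, was 52.2 ± 7.25 and 62.4 ± 11.8 CPM (SD, n = 5 each; adjusted p = 0.158), and Tsc22d3, an anti-inflammatory mediator of the hormone, was 86.7 ± 14.4 and 113 ± 16.9 CPM (SD, n = 5 each; adjusted p = 0.0908). Nr3c1, which encodes the glucocorticoid receptor, went from 78.9 ± 4.64 to 89.6 ± 4.01 CPM (SD, n = 5 each; log2 fold change 0.18, adjusted p = 0.0422). Its call was lost in 9 of 10 fits that left out a library, with relative log expression or upper-quartile scaling, and with the offsets, where the log2 fold change was 0.05.

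Of 19 circadian clock genes, 3 rose (Clock, Per2 and Rorb) and none fell. Clock, an activator of the loop, was 69.9 ± 4.45 and 86.4 ± 1.94 CPM (SD, n = 5 each; log2 fold change 0.31, adjusted p = 0.00316). Per2, a repressor of the loop that acute stimuli also induce, was 62.7, 52.2, 57.8, 60.5 and 53.2 CPM and then 79.8, 81.7, 64.3, 64.5 and 65.7 CPM (log2 fold change 0.31, adjusted p = 0.0466), and was called in 2 of 10 fits that left out a library. Per1, its close relative, was 102 ± 9.91 and 107 ± 15.2 CPM (SD, n = 5 each; adjusted p = 0.755). With offsets for GC content and transcript length none of the 3 was called, and Bhlhe41, a repressor of the loop, was called lower (log2 fold change -0.28, adjusted p = 0.0465); without 30 min library 1 there was 1 call. Zeitgeber times of the trials were not given.

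The rises with the lowest adjusted p were those of Proser1, Rbm25, Taok1, Sfpq, Mib1 and Elk4. Proser1, a proline- and serine-rich partner of chromatin-modifying complexes, was 13.1, 13.9, 14.1, 15.9 and 13.7 CPM at 30 min and 23.2, 24.7, 20.1, 25.0 and 20.4 CPM at 60 min (log2 fold change 0.68, SE 0.07, adjusted p = 3.94e-06). Rbm25, a splicing factor, was 71.5, 82.1, 77.3, 79.0 and 84.3 CPM and then 120, 119, 135, 126 and 139 CPM (log2 fold change 0.69, SE 0.08, adjusted p = 9.8e-06). In both genes all 60 min libraries lay above all 30 min libraries. At 120 min Proser1 was at 23.2 ± 0.754 and Rbm25 at 122 ± 4.55 CPM (SD, n = 5 each), with changes from 60 min that were not called.

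Taok1, a kinase upstream of stress-activated MAP kinases, was 140 ± 7.08 and 186 ± 7.97 CPM (SD, n = 5 each; log2 fold change 0.41, adjusted p = 9.8e-06). Sfpq, a paraspeckle and splicing protein needed for long neuronal transcripts, was 153 ± 9.08 and 201 ± 4.25 CPM (SD, n = 5 each; log2 fold change 0.39, adjusted p = 7.73e-05). Mib1, the ubiquitin ligase that activates Notch ligands, was 177 ± 6.66 and 218 ± 7.88 CPM (SD, n = 5 each; log2 fold change 0.30). Elk4, a partner of the serum response factor, was 12.8, 12.8, 13.1, 13.0 and 12.4 CPM at 30 min and 16.6, 16.4, 15.9, 15.9 and 17.0 CPM at 60 min (log2 fold change 0.35, SE 0.05, adjusted p = 0.000291). Gucy1a2, a subunit of the nitric oxide receptor, was 4.76, 6.98, 4.44, 8.07 and 5.09 CPM and then 13.4, 16.3, 9.97, 12.7 and 9.30 CPM (log2 fold change 1.07, SE 0.19, adjusted p = 0.00201). All 5 of these genes separated fully between the times.

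**Figure D2:**
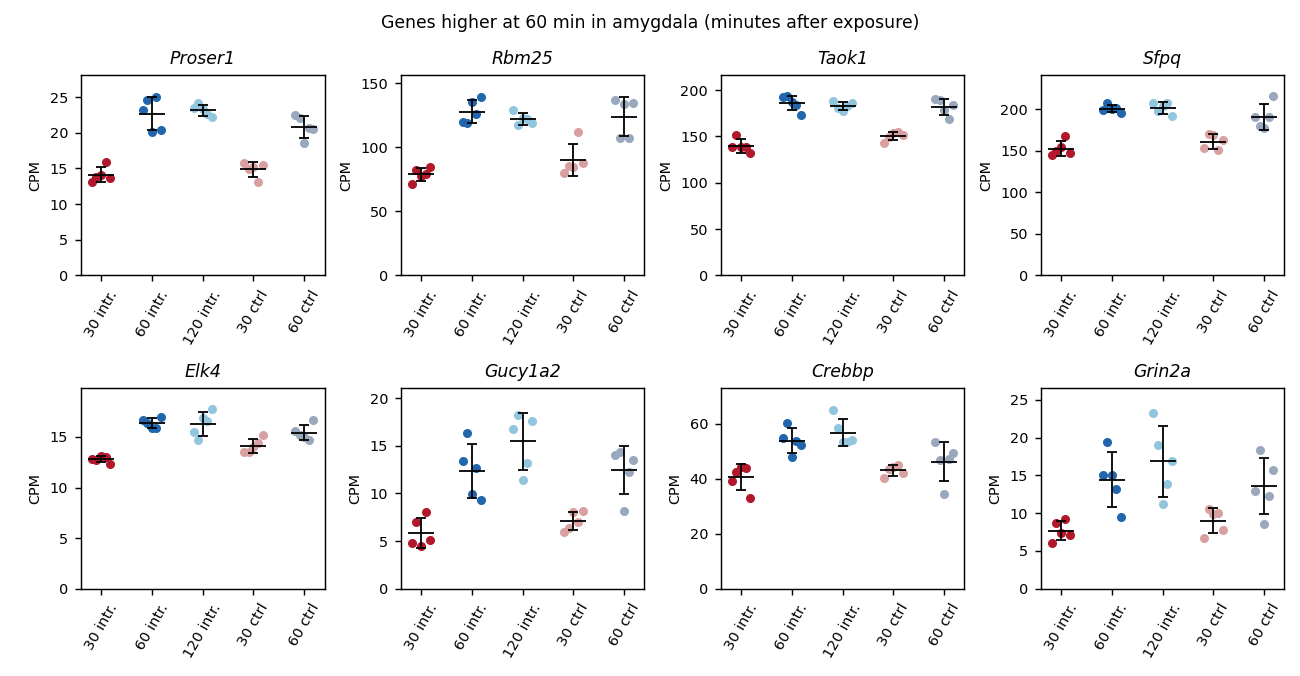
CPM of 8 genes higher at 60 min in each amygdala library (points) with group mean and SD (black; n = 5 each), for intruder-exposed mice at 30, 60 and 120 min and controls at 30 and 60 min; axes start at 0. Intruder-exposed Rbm25 lies at 71.5 to 84.3 CPM at 30 min and 119 to 139 CPM at 60 min, and the control means, 89.8 and 124 CPM, differ in the same direction.

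Nuclear regulators were read in 4 lists. Of 37 chromatin regulators, 13 rose and none fell, with a list median of 0.14; 4 rose without 30 min library 5, and 2 with offsets for GC content and length (Kmt2d and Crebbp). They included Crebbp, the acetyltransferase that binds phosphorylated CREB, at 39.2, 42.4, 44.4, 44.0 and 32.9 CPM and then 54.9, 60.2, 47.8, 53.9 and 52.4 CPM (log2 fold change 0.41, SE 0.09, adjusted p = 0.00978), and Tet2, which oxidizes methylated cytosine, with a log2 fold change of 0.39. Kdm6a, a histone demethylase, rose by 0.26 and the methyltransferase Kmt2d by 0.36 on the log2 scale. Of 13 genes of cohesin, the ring that folds chromatin into loops, and its regulators, all 13 had a higher value and 6 rose (Smc3, Stag1, Stag2, Nipbl, Wapl and Pds5a). Nipbl, the loader, was 45.4 ± 2.59 and 60.0 ± 2.84 CPM (SD, n = 5 each; log2 fold change 0.40, adjusted p = 0.000291). With the offsets Nipbl and Pds5a were called. The cohesin list was drawn up after results had been seen.

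Of 34 splicing regulators, 8 rose and none fell, with a median of 0.04. Without 30 min library 1 there were 2 called higher, with upper-quartile scaling 4, and with the offsets 1 (Rbm25). Beside Rbm25, Son, a speckle scaffold, was 361 ± 18.2 and 428 ± 27.5 CPM (SD, n = 5 each; log2 fold change 0.25, adjusted p = 0.013), and Prpf4b, a kinase of the spliceosome, had a log2 fold change of 0.21. Of 26 factors of microRNA silencing and deadenylation, a list also made later, 6 rose and 2 fell. The risers included Tnrc6b, the Argonaute partner that silences targets (log2 fold change 0.47), and Ago3 (0.39), and those that fell were Tob1 and Btg2. Without 30 min library 1 there were 3 called higher in this list, and with the offsets 1 (Tnrc6b).

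Genes of the synapse were read in 5 lists. Over all genes 4.71% were called higher, and the lists with 1 call lay under that share. Of 22 postsynaptic scaffold genes, 21 had a higher value and 5 rose (Dlg1, Dlg2, Shank2, Dlgap2 and Ank2), with a median of 0.20; without 30 min library 1, and with offsets for GC content and length, none was called. The 8 excitatory neuron markers, none called, had a median of 0.24 and summed to 3149 to 3939 CPM at 30 min and 2827 to 5542 CPM at 60 min. Scaffold genes summed to 7097 to 7620 and 7030 to 9837 CPM, and in both lists 60 min libraries 2 and 3 were the highest of that time and library 5 the lowest; the part of the one in the other was not tested. Of 29 synaptic vesicle and release genes 1 rose (Unc13a, a protein that primes vesicles for fusion), with a median of 0.04, and upper-quartile scaling called 1 higher and 2 lower. Unc13a was not called with the offsets, and leaving out a library gave 0 (without 30 min library 1) to 3 called higher in the list. Of 18 ionotropic glutamate receptor subunits, 2 rose, and neither was called with the offsets; leaving out a library gave 1 (without 30 min library 1) to 4. Grin2a, an NMDA receptor subunit, was 6.07, 8.65, 7.44, 9.20 and 7.09 CPM and then 15.1, 19.5, 15.0, 13.3 and 9.45 CPM (log2 fold change 0.91, SE 0.21, adjusted p = 0.01), without overlap. Gria3, an AMPA receptor subunit, was 223 ± 20.1 and 299 ± 60.4 CPM (SD, n = 5 each; log2 fold change 0.42, adjusted p = 0.0421). Of 22 voltage-gated potassium channel genes, 1 rose, Kcnma1, a channel opened by calcium and voltage, from 32.2 ± 3.45 to 52.7 ± 12.8 CPM (SD, n = 5 each; log2 fold change 0.71, adjusted p = 0.0113), which was not called without 60 min library 2 or with the offsets. None of 14 GABA-A receptor subunits was called by edgeR, with a median of 0.10.

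Subunits of mitochondria and ribosomes were read in 3 lists. Of 74 nuclear genes of oxidative phosphorylation, which build the respiratory chain, 73 had a lower value at 60 min and 7 fell (Ndufa8, Ndufb4, Ndufb6, Ndufs5, Ndufs7, Sdhb and Atp5g2), with a median of -0.17 against 0.04 in controls. Ndufb4, a complex I subunit, lay between 43.4 and 50.9 CPM at 30 min and between 35.2 and 41.8 CPM at 60 min (log2 fold change -0.29, SE 0.06, adjusted p = 0.00629). Of 76 mitochondrial ribosomal proteins 19 fell and 1 rose (Mrpl50), and of 69 cytosolic ribosomal proteins 13 fell and none rose, with medians of -0.14 and -0.17; both lists were added after results had been seen. Leaving out a library gave 1 to 31 called lower in oxidative phosphorylation and 1 to 37 among cytosolic ribosomal proteins, with 1 in each without 30 min library 1, and 7 to 24 among mitochondrial ribosomal proteins, with 7 without 60 min library 1. Upper-quartile scaling called 18 lower in oxidative phosphorylation, 29 among cytosolic and 26 among mitochondrial ribosomal proteins. With offsets for GC content and length 4 were called lower in oxidative phosphorylation, 2 among cytosolic and 4 among mitochondrial ribosomal proteins. Ribosomal genes have many near-identical pseudogene copies, so their counts are uncertain where reads could be split.

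Of 36 genes listed for glycolysis, pyruvate and the citrate cycle, 2 fell, with a list median of -0.09. They were the glycolytic enzyme Eno2 (log2 fold change -0.17) and Got2 (-0.21), a mitochondrial aminotransferase outside both pathways. Of 20 proteasome subunits, 20 had a lower value and 2 fell (Psma7 and Psmb4). Upper-quartile scaling called 5 lower in the first list and 4 in the second, and with offsets for GC content and length none was called in either. Leaving out a library gave 1 to 4 in the first (1 without 30 min library 5) and 1 to 2 in the second (1 without 30 min library 1). Of 12 tested protein genes of the mitochondrial genome none was called, and their median was 0.05. Of 20 heat shock and cold-inducible genes none was called either.

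**Figure D3:**
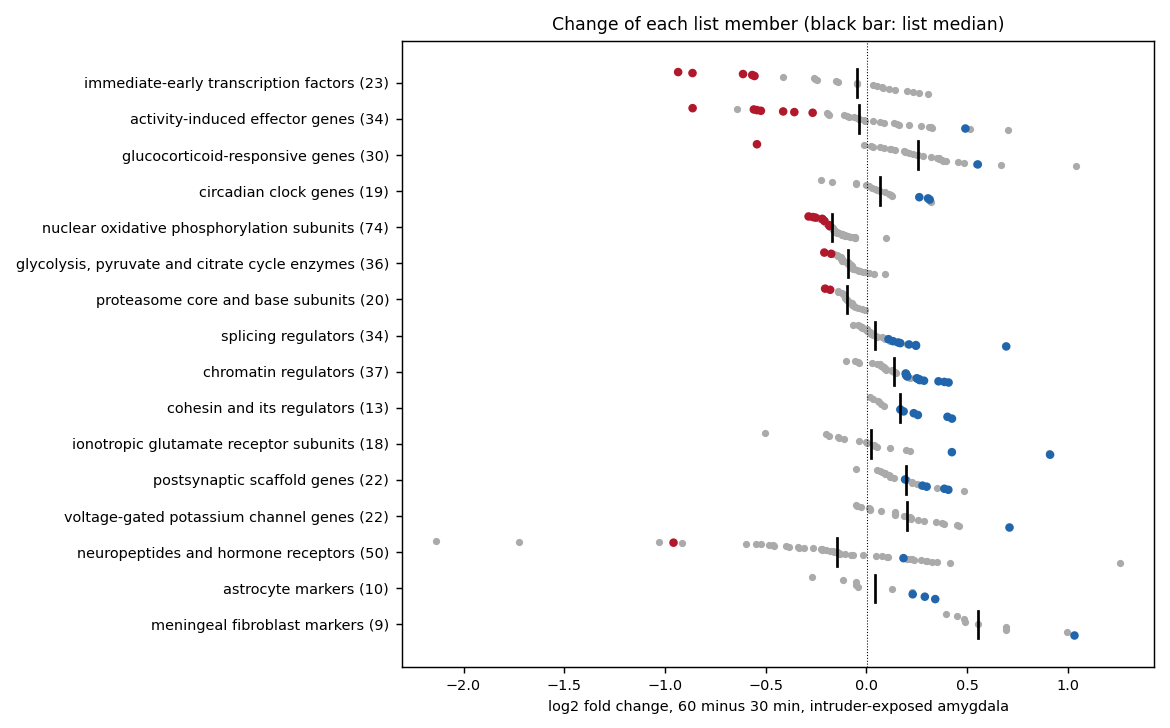
Log2 fold change, 60 minus 30 min, of each tested member of 16 gene lists in the intruder-exposed amygdala; grey points did not pass, red points fell, blue points rose, black bars are list medians and the number of members is in brackets. The 7 called oxidative phosphorylation genes lie on the lower side, and the 13 called chromatin regulators on the higher side.

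The direction of change moved with transcript length and base composition. Called higher genes had a median length of 6351 bases and 43.6% GC, called lower genes 2057 bases and 54.7%, and all tested genes 3223 bases and 49.8%. In the shortest of 5 equal parts of the genes by length, 0.513% rose and 5.85% fell, and in the longest, 16.3% rose and 0.423% fell. In controls the median log2 fold change was 0.01 in the shortest and 0.02 in the longest part, against -0.09 and 0.11 in intruder-exposed mice. By GC content, 12.8% of genes rose in the lowest part and 0.272% in the highest. The median ran from 0.08 in the lowest to -0.08 in the highest part in intruder-exposed mice, and in the same direction, from 0.04 to -0.03, in controls. With offsets for GC content and length the list medians were 0.01 for chromatin regulators, 0.04 for cohesin, 0.00 for splicing and -0.13 for oxidative phosphorylation. With the share of reads outside genes as a covariate they were 0.06 for chromatin regulators, 0.12 for cohesin, -0.01 for splicing, -0.07 for oxidative phosphorylation, -0.08 for cytosolic and -0.07 for mitochondrial ribosomal proteins, and -0.03 for the proteasome. The median of immediate-early factors, -0.05 in the main fit, was 0.002 with the covariate and 0.09 with the index block. That of effectors, -0.03 in the main fit, was 0.04 and 0.06. With the same offsets Fos (log2 fold change -0.89), Npas4 (-0.83), Btg2 (-0.85), Dusp1 (-0.48), Scg2 (-0.42), Rbm25 (0.58), Sfpq (0.39) and Proser1 (0.67) were still called, as were Ier2 (-0.44) and Sik1 (-0.52). Junb (-0.42), Nr4a1 (-0.53), Ccn1 (-0.50), Gadd45g (-0.23), Vgf (-0.15) and Homer1 (0.35) were no longer called, which left 3 of the immediate-early factors and 4 of the effectors called lower. The part of length and composition, of reads outside genes, of the index and of the column tag in the smaller changes was not tested further.

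**Figure D4:**
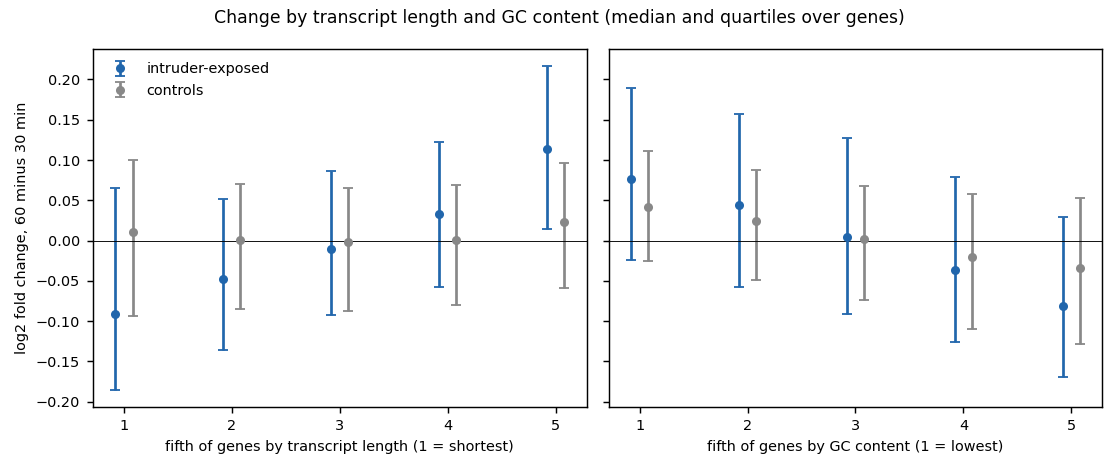
Median and quartiles over genes of the log2 fold change, 60 minus 30 min, in 5 equal parts of the tested genes by transcript length (left) and GC content (right), for intruder-exposed (blue) and control (grey) amygdala. The intruder-exposed median runs from -0.09 in the shortest to 0.11 in the longest part, with control medians of 0.01 and 0.02 there; by GC content the medians run from 0.08 to -0.08 in intruder-exposed mice and from 0.04 to -0.03 in controls.

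Markers of glia, of other tissue and of other regions were read in the same libraries. Of 10 astrocyte markers 3 rose: Slc1a2 (log2 fold change 0.34) and Slc1a3 (0.23), which clear glutamate, and the water channel Aqp4 (0.29), while 5 of the 10 had a lower value. Slc1a2 alone of these was called without 30 min library 1, and none with offsets for GC content and length. All 9 meningeal fibroblast markers had a higher value, with a median of 0.55, and 1 rose: Dcn, a matrix proteoglycan, at 11.5, 13.1, 20.04, 11.8 and 15.1 CPM and then 18.7, 33.7, 38.1, 22.9 and 32.7 CPM (log2 fold change 1.03, SE 0.28, adjusted p = 0.0251). The fibroblast sum was 121 to 182 CPM at 30 min and 155 to 336 CPM at 60 min. Dcn was not called without 30 min library 1 or with the offsets. Of 10 cortex markers Rasgrf2 and Rorb rose (neither was called without 30 min library 1 or with the offsets), and the summed level was 438 to 512 CPM and then 505 to 567 CPM. Oligodendrocyte markers ranged widely, from 3195 to 5320 CPM at 30 min and from 1993 to 6017 CPM at 60 min, as did striatum markers, from 547 to 1786 CPM and from 399 to 1909 CPM, with none called in either list; all 10 oligodendrocyte markers had a lower value (median -0.24), as had 9 of 10 striatum markers (median -0.15). Of 10 general neuron markers 8 had a lower value and none was called (median -0.10). All 5 red cell markers had a higher value (median 0.49). All 5 ependymal markers (median -0.16) and 9 of 11 microglia markers (median -0.04) had a lower value, with none called in these 3 lists. Defining markers of none of these lists were at 0, and the part of tissue makeup in the gene groups above was not tested.

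The largest fold changes of all rested on a single library. Cbln3, Fat2 and Cnpy1, genes of the cerebellum and hindbrain, were 38.1, 21.7 and 14.4 CPM in 60 min library 4 and at most 0.807, 0.414 and 0.238 CPM in the other 60 min libraries. Their fitted log2 fold changes of 3.71, 4.03 and 4.56 had adjusted p of 0.0107, 0.0117 and 0.013. None of the 3 was called without that library, while the total of called genes was then 1039.

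The same interval in the controls asks how much of the change also occurs after the cup; there too all 30 min columns carry the tag ISO and all 60 min columns CERV. Between 30 and 60 min 23 genes were called in controls (0.133%), with 19 higher. Proser1 rose there too, from 14.9 ± 1.06 to 20.9 ± 1.55 CPM (SD, n = 5 each; log2 fold change 0.49, adjusted p = 0.00303), as did Anp32e, a chaperone that removes the histone variant H2A.Z (log2 fold change 0.23). Rbm25 and Taok1 also passed in controls, at 0.46 and 0.28. Cdc25b, a phosphatase that activates cyclin-dependent kinases, fell from 11.5 ± 0.679 to 9.29 ± 0.863 CPM (SD, n = 5 each; log2 fold change -0.31, adjusted p = 0.0265), and Nit1, an amidase, fell by 0.17 on the log2 scale. Without control 1 at 60 min, whose share of reads outside genes was 14.5% against 10.6% to 12.2% in the others, 186 genes were called, 65 higher and 121 lower, so that 34.9% were higher against 82.6%.

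Of the 814 genes called higher in intruder-exposed mice, 757 (93.0%) had a higher value at 60 min in controls as well, with a median of 0.11, and of the 467 called lower, 361 (77.3%) had a lower value, with a median of -0.05. Among all tested genes the same sign occurred in 63.0%. The comparisons share no library. In controls Fos was 37.2 ± 1.97 and 29.0 ± 7.78 CPM (SD, n = 5 each; log2 fold change -0.36, adjusted p = 0.372), Npas4 17.96 ± 2.10 and 12.9 ± 2.91 CPM (SD, n = 5 each; adjusted p = 0.264) and Btg2 21.6 ± 2.05 and 17.1 ± 4.32 CPM (SD, n = 5 each; adjusted p = 0.416).

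The test of the difference between the 2 changes called 0 genes (0%) by edgeR and by DESeq2, with 1458 at an unadjusted p below 0.05 and a smallest adjusted p of 0.462. For Fos the change in intruder-exposed mice minus that in controls was -0.57 on the log2 scale (SE 0.21, adjusted p = 0.558), for Btg2 -0.52 (SE 0.22, adjusted p = 0.558) and for Ier2 -0.33 (SE 0.13, adjusted p = 0.558). For Per2 it was 0.45 (SE 0.14) and for Txnip 0.49 (SE 0.20), both with an adjusted p of 0.558. The declines of Fos, Npas4 and Btg2 passed in intruder-exposed mice and did not pass in controls, but they were not shown to differ from those after the cup. Between intruder-exposed and control mice 0 genes were called at 30 min and 0 at 60 min by edgeR (473 and 1232 at an unadjusted p below 0.05). These are counts after adjustment and do not mean that the values of the groups overlapped. At 30 min Fos was 0.39 higher in intruder-exposed mice on the log2 scale (adjusted p = 1.00).

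Against the hypothalamus of intruder-exposed mice, the change in amygdala differed for 0 of 17657 genes (0%) by edgeR and by DESeq2, with 947 at an unadjusted p below 0.05. These fits took the libraries of the regions as independent. With same-numbered libraries of a condition and time blocked as 1 animal, 0 genes were called as well. In hypothalamus 44 genes were called over the same interval. Fos fell there by 1.17, Junb by 1.05, Nr4a1 by 1.08 and Btg2 by 1.06 on the log2 scale (adjusted p = 0.0328, 0.037, 0.037 and 0.037). Txnip rose by 0.65 there, with an adjusted p of 0.00135.

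Against the frontal cortex, 7534 genes (42.7%) differed in their change, and 7870 with libraries blocked by animal. In frontal cortex 7580 genes were called over the interval. Its median log2 fold change was 0.40 for oxidative phosphorylation and -0.34 for chromatin regulators, where amygdala had -0.17 and 0.14. Other lists had the same sign in both regions, such as glucocorticoid-responsive genes, with medians of 0.28 in cortex and 0.25 in amygdala. Immediate-early transcription factors had -0.16 and -0.05, but their amygdala median was 0.09 with the index block and 0.002 with the covariate. Rbm25 fell by 0.82 in cortex (difference 1.51, SE 0.12, adjusted p = 1.41e-09) and Ttc14, a tetratricopeptide repeat protein, fell by 0.70 (difference 0.96, adjusted p = 1.41e-09). Timm8b, which carries proteins into mitochondria, rose by 0.50 in cortex (difference -0.71, adjusted p = 5.5e-09), and Ckmt1, the mitochondrial creatine kinase, by 0.41 (difference -0.67, adjusted p = 1.96e-08). Among activity genes, Fos fell by 0.60 and Btg2 by 1.07 in cortex, and their changes were not called different from amygdala (adjusted p = 0.443 and 0.622). Scg2 and Vgf rose in cortex by 0.35 and 0.33 and differed in change from amygdala (adjusted p = 2e-05 and 0.000278). The 30 and 60 min frontal cortex libraries of intruder-exposed mice also shared no leading index, so there too time and index, as well as time and the column tag, cannot be told apart.

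From 60 to 120 min, 12 genes were called in intruder-exposed amygdala (0.0695%), 1 higher and 11 lower. This comparison shares the 60 min libraries with the one above. Dpysl3, a protein of growing axons, rose from 67.2 ± 1.48 to 78.0 ± 3.35 CPM (SD, n = 5 each; adjusted p = 0.0459). No gene was called higher with upper-quartile scaling, voom, no filter on low counts, the covariate or the compared groups alone, nor without any one of the 60 min libraries. Ocln, a tight junction protein of vessels, fell from 9.76 ± 0.367 to 6.02 ± 0.428 CPM and Rgs5, a pericyte gene, from 107 ± 8.78 to 59.7 ± 0.97 CPM (SD, n = 5 each; log2 fold changes -0.70 and -0.84). Of 11 endothelial markers 3 were called lower over that hour, with a median of -0.58, and of 10 mural cell markers, which include Rgs5, 1 was, with a median of -0.13; their part in these falls was not tested. Fos, Junb and Nr4a1 had values of -0.54, -0.70 and -0.42 on the log2 scale over that hour and did not pass (adjusted p = 0.177, 0.143 and 0.322).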

How the data were processed

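Stranded mRNA libraries were sequenced as single-end reads from total RNA, per the labels' protocols. The authors deposited counts, whole numbers of reads per gene for 37991 Ensembl identifiers, and 90 columns matched their samples. The submitters' processing notes name CASAVA 1.8.2, TopHat2 2.0.8, HTSeq 0.6.1, edgeR 3.2.4, R 3.0.0 and NCBIM37, with no roles given. The 5 rows that name no gene were left out of library sizes and tests: in the 10 libraries 10.8% to 13.8% of reads had no feature, 0.661% to 0.728% were ambiguous and 10.0% to 10.8% aligned to several places. Symbols, lengths and GC content came from Gencode M21 by identifier (32919 matched; 95.8% of tested genes had length and GC).

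The 30 amygdala libraries were fitted with edgeR 4.0.16 under R 4.3.3 (TMM, filterByExpr, 1 coefficient per group, quasi-likelihood test), leaving 17277 genes, and a gene is called where its p after Benjamini-Hochberg adjustment is under 0.05. Region differences used 30 intruder-exposed libraries. Tests are two-sided. The members and lists were chosen with earlier results of these data known. Genes named by rule are the 6 higher and 6 lower with the smallest adjusted p, the 4 higher and 4 lower with the largest change above a mean of 1 CPM, up to 2 each way in every other test, and members of lists. Alternatives used limma 3.58.1 (voom), DESeq2 1.42.0, other scalings, filters and blocks. Counts were simulated for 17157 genes, with changes set only in a random sample of genes above a floor of expression. The simulation held no differences of index, column tag or tissue makeup. The main comparison recovered 100% of the genes changed by 1 on the log2 scale and 76% of those changed by 0.5. The test of the difference between changes recovered 97% and 43%. These shares do not cover genes of low expression or genes more variable than others of their level. Equal replicate numbers did not pair samples: same-numbered 30 and 60 min intruder libraries had correlations of -0.04 to 0.42. No pair of libraries of a group agreed within sampling noise (chi-square over degrees of freedom 8.51 to 109 in 40 pairs). Reads carry no molecular identifiers.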

Additional observations from a re-analysis of the deposited data

Results flagged for a closer look

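Among 50 groups of 5 libraries examined (6 library measures and 19 named genes at each time), 6 held a library set apart from the other 4 by a gap above 0.71 of the range. Chance gives about 1 in 20 groups, a rate that does not apply to Cnpy1, Fat2 and Cbln3, since they were named for large changes that the library itself sets. In 60 min intruder library 4, Cnpy1 was 14.4 CPM (the others 0.0614 to 0.238), Fat2 was 21.7 CPM (the others 0.281 to 0.414) and Cbln3 was 38.1 CPM (the others 0.477 to 0.807). The same library had Sall2 at 92.5 CPM, with the others at 85.2 to 87.1 CPM. In 30 min intruder library 1, Tob1 was 45.2 CPM, with the others at 42.5 to 43.1 CPM. In 30 min intruder library 5, reads without a feature were 10.8% (10.7749% before rounding), with the others at 11.7% to 12.0%.

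The change from 30 to 60 min differed between amygdala and frontal cortex for 7534 genes, by a test of the difference itself.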

How the results depend on the processing

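Counts of called genes for 60 minus 30 min in intruder-exposed amygdala (1281) kept within 1.5 times under size factors by relative log expression (1251), voom (1247), a fit of the compared groups alone (1335) and DESeq2 (1741). Upper-quartile scaling called 1403, of which 643 were higher, so that 45.8% were higher against 63.5%. Without the filter on low counts 804 were called, with the index block 1, with GC content and length offsets 249, and with reads outside genes as a covariate, added after seeing the data, 279. Leaving out a library gave 535 to 1452. The replicate block gave 1612, but the labels give equal numbers no shared source, and 2 of 5 libraries correlated best with their own number. For controls (23), DESeq2 called 113, no filter 13, the replicate block 12, the index block 0, the covariate 64 and the compared groups alone 0, and leaving out a library gave 12 to 186. For 120 minus 60 min (12), DESeq2 called 100, the index block 0, the covariate 7 and the compared groups alone 3, and leaving out a library gave 4 to 29 (the replicate block 14). The difference between intruder-exposed and control changes stayed at 0 except for 2 genes without 60 min control 1. The difference from hypothalamus stayed at 0 in all fits run, and that from frontal cortex (7534) ran from 6946 to 8100, with 7870 under the block by animal.

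Of 128 named genes and called list members, the replicate block kept 125 calls and DESeq2 124 of 124 with a value. GC content and length offsets kept 33, the covariate 30 and the index block 1. The median change of genes called higher was 0.25 with the index block against 0.26 without, and of those called lower -0.19 against -0.22. That fit has only the controls to separate index from time, and the part of the index was not tested. Signs reversed in 3 instances: Nsd1 under GC content and length offsets (-0.013), and Cnpy1 (-0.15) and Cbln3 (-0.10) without 60 min intruder library 4; leaving out a library gave up to 4.88 for Cnpy1 and 4.003 for Cbln3. The causes were not tested. Genes near 1 CPM or below rest on few reads per library, and 5 libraries a group limit what small changes can pass.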
